A study of Mus musculus with 6 samples.

Results

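The lysosomal genes of cultured osteoclasts were examined on 6 arrays. The set comprised 50 genes, named by symbol, of the 37074 gene names on the array: 10 cysteine proteases, 4 aspartic and serine proteases, 10 glycosidases, 5 sulfatases, 6 lipid hydrolases, 3 phosphatases and nucleases, 4 activators and lipid transfer proteins, 5 membrane proteins, and 3 transcription factors that control them. The rule names them by symbol and uses no measured value. All 50 were on the array, and all 50 passed the filter on dim probes, as did 20645 genes in all. They had 100 probes, of which 95 were tested and 5 were below background on every array.

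Osteoclasts were obtained from bone marrow of 3 Ano1fl/fl mice and 3 Ctsk-Cre;Ano1fl/fl littermates and were induced by RANKL, the cytokine of osteoclast formation, for 5 days. For such cultures the methods give mice of 6 to 8 weeks, a RANKL dose of 50 ng/ml, and M-CSF, which sustains the precursors, at 30 ng/ml. Both groups carry Ano1, a calcium-activated chloride channel gene, with loxP sites, and Cre comes from a line that the methods call transgenic, driven by regulatory sequence of cathepsin K, itself one of the genes examined here. The arrays are called control arrays (labelled Ano1fl/fl) and Cre arrays (labelled Ctsk-Cre;Ano1fl/fl) from here on. On all 6 arrays the probe for Ano1 stayed below the mark for well above background, so the deletion could not be checked, and each direction rests on the labels. By these labels, the direction of Ctsk and Acp5 on the arrays is the opposite of the one that the study gives for the same genotypes by quantitative PCR, and whether the labels of the groups are right was not tested. The labelled cell type was checked with 14 further osteoclast genes, all of which passed the filter. Of these, 13 were higher and 1 was lower on the Cre arrays, and those higher include Calcr, well above background on 2 control arrays. The stromal and osteoblast markers tested numbered 17 of 18, of which 14 were higher and 2 lower. These include Lum and Pdgfra, well above background on 0 control arrays, and Postn, on 1, which passed the filter through the Cre arrays. RNA was extracted from whole cultures, in which fewer cells of a type and less RNA per cell cannot be told apart.

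Lysosomes digest proteins, glycans, lipids and nucleic acids with acid hydrolases, most of which reach the organelle through a mannose 6-phosphate tag. Osteoclasts fuse lysosomal vesicles with the membrane that faces bone, and the enzymes released there, cathepsin K first among them, degrade the matrix. TFEB, TFE3 and MITF are related transcription factors that bind E-box and M-box elements in promoters of lysosomal genes, and MITF and TFE3 also act in osteoclast development.

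The stretches of promoter sequence shown here belong to the genes on which the results turn, with the E-box or the M-box in capitals where one was found. Each is the 150 bases before a start site, from RefSeq on GRCm38.p6, written 5′ to 3′ on the strand of the gene. The E-box was searched as CACGTG, which reads the same on both strands, and the M-box as TCATGTGA, on both strands. Variants of these strings were not searched. The first pair, the genes with the largest rises, held neither of these exact strings.
Arsb, chr13:93771529-93771678, plus strand: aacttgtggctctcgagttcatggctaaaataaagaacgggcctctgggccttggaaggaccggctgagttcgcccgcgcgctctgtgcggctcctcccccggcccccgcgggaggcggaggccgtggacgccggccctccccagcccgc
Ctsk, chr3:95499060-95499209, plus strand: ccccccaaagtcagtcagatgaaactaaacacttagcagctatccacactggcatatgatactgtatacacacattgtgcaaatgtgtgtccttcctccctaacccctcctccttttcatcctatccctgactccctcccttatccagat
Ctsf, which also rose by more than 2-fold, held 1 E-box, and the lysosomal calcium channel gene Mcoln1 held 2.
Ctsf, chr19:4855015-4855164, plus strand: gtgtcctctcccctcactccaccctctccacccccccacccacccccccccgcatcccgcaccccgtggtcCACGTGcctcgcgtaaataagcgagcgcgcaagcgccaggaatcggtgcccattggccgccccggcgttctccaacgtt
Mcoln1, chr8:3500369-3500518, plus strand: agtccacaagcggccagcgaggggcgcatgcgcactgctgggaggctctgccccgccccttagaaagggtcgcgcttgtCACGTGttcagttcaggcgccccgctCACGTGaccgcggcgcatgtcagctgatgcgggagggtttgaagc
Lamp1, a major protein of the lysosomal membrane, held 4 E-boxes, and 1 of the 3 start sites of Acp5, the tartrate-resistant acid phosphatase gene, had an M-box on the opposite strand.
Lamp1, chr8:13159011-13159160, plus strand: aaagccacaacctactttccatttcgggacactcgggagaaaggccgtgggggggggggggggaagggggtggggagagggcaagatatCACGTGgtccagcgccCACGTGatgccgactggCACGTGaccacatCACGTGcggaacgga
Acp5, chr9:22130599-22130748, minus strand: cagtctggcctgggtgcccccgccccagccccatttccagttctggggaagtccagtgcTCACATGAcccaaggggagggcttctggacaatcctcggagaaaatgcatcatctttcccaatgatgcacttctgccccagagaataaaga

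Most lysosomal genes differed little between the groups, as did most of all genes tested, and a few cathepsins and a sulfatase differed by much. In limma's test with Benjamini-Hochberg adjustment over 20645 genes, 14 of the 50 genes were higher on the Cre arrays (28%, against 23.4% of all genes tested) and 8 were lower (16%, against 29% of all genes tested). More than 2-fold, 3 genes were higher, where 9.88% of all genes were, and 1 was lower, where 7.19% were. The gene lower was Ctse, of which only 1 Cre array was well above background, and the count was 0 with normexp background correction, with the series matrix and with a filter asking for all arrays. Of the genes higher, Ctsf was under 2-fold with normexp and with the series matrix. The 3 control arrays lay apart from the 3 Cre arrays for 32 of the 50 genes, a share equal to the 64% of all genes tested. The median log2 difference was 0.09 for the lysosomal genes and -0.06 for all genes tested. In absolute size the median difference was 0.23 and 0.35. The median SD within a group was 0.09 for lysosomal genes and 0.14 for all genes tested, so a smaller difference could be called among the lysosomal genes. Their log2 differences lay within 0.5 of 0 for 34 of 50 (68%), as did those of 62.8% of all genes. Scaling the arrays to their 75th percentile in place of the quantile step gave 12 higher and 13 lower, and over all genes it moved the counts from 4839 higher and 5987 lower to 4191 and 6714. The median of the lysosomal genes was 0.04 with that scaling and 0.02 with the mean of all probes, against -0.12 and -0.08 for all genes.

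**Figure D1:**
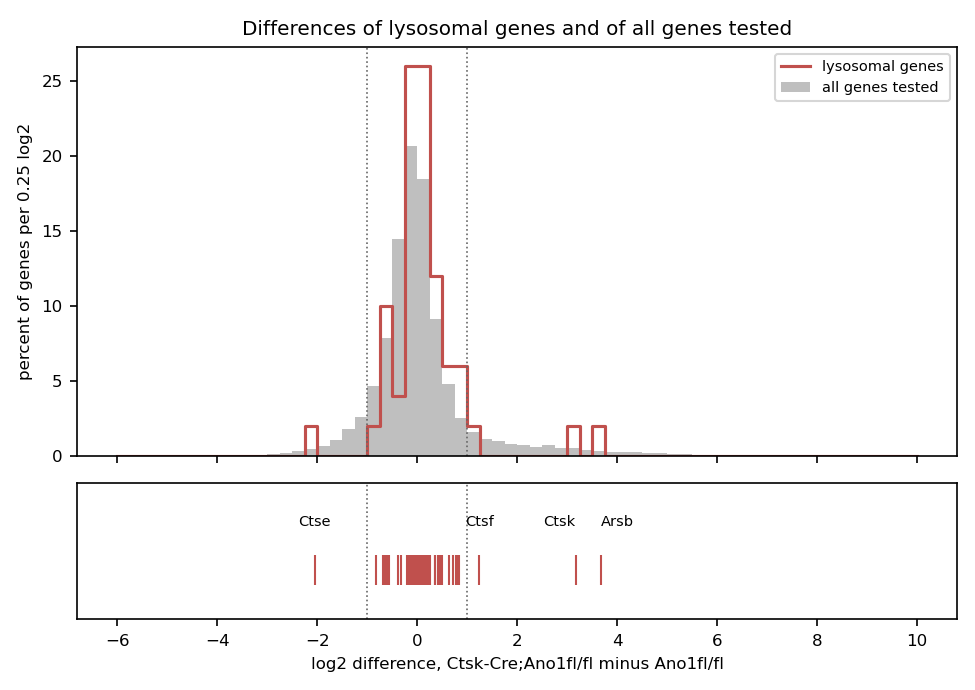
Upper panel, the percentage of genes in each bin of 0.25 in log2 difference (Cre minus control arrays) for the 50 lysosomal genes (line) and the 20645 genes tested (bars); lower panel, 1 tick per lysosomal gene, with dotted lines at 2-fold in both panels. Most lysosomal genes sit between the dotted lines, and Arsb, Ctsk and Ctsf lie to the right of them and Ctse to the left.

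Among the 10 cysteine proteases, 3 were higher, 2 were lower and 5 did not pass the test. Ctsk encodes cathepsin K, the collagen-degrading protease of osteoclasts, and its probe lies at mm9 chr3:95313165-95313224, at position 1438 of its transcript. Its log2 signals on the 3 control arrays were 14.09, 13.79 and 13.78. On the Cre arrays they were 16.98, 17.18 and 17.03. Every Cre array lay above every control array, by 9.01-fold on average (log2 difference 3.17, standard error 0.11, limma adjusted p = 1.53e-05). Ctss, the gene of cathepsin S, which trims the invariant chain of MHC class II, is the next protein-coding gene to Ctsk on chromosome 3. Its log2 signals were 17.08, 17.03 and 17.04 on the control arrays and 17.05, 17.29 and 17.09 on the Cre arrays, which overlapped, and its log2 difference was 0.09 (95% interval -0.11 to 0.30). The neighbours thus had different values.

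Ctsf encodes cathepsin F, a cysteine protease whose propeptide resembles a cystatin. Its log2 signals were 6.68, 6.41 and 6.63 on the control arrays. They were 7.83, 8.01 and 7.58 on the Cre arrays. The groups did not overlap, and the rise was 2.36-fold (log2 difference 1.24, standard error 0.14, limma adjusted p = 0.00068), with log2 differences of 0.85 with normexp and 0.997 with the series matrix. Ctsz, a carboxypeptidase gene, rose by less, with a log2 difference of 0.50 (limma adjusted p = 0.00206). Ctso and Ctsc fell. The signals of Ctso, another cysteine protease of this family, were 6.38, 6.41 and 6.60 on the control arrays and 5.67, 5.51 and 5.73 on the Cre arrays (log2 difference -0.82, limma adjusted p = 0.000924). Ctsc encodes the dipeptidyl peptidase that activates granule serine proteases of neutrophils and mast cells, and its signals were 14.59, 14.72 and 14.73 on the control arrays. They were 14.09, 13.96 and 14.07 on the Cre arrays, lower without overlap (log2 difference -0.64, limma adjusted p = 0.000924). Both dimmer probes of Ctsc were lower too (-0.84 and -1.17). These lie on an Ensembl transcript, and of all dimmer probes without a RefSeq accession 50% were lower.

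Markers of the cells that use the granule proteases were measured as well. Of 11 neutrophil markers tested, 7 were lower and 2 higher, with a median log2 difference of -0.60 and summed processed signals of 340500 to 404000 on control arrays and 199100 to 270400 on Cre arrays. Of 6 mast cell and basophil markers tested, 5 were lower and 0 higher, with a median of -2.74, and the lower ones include Ms4a2, well above background on 1 Cre array. The Cre arrays differed in these markers, with Mcpt8 at 10.07, 7.68 and 8.02 and Cpa3 at 7.84, 5.39 and 6.01. The part of these cells in the fall of Ctsc was not tested.

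The other cysteine proteases did not pass the test. Ctsb and Ctsh, the genes of a carboxydipeptidase and an aminopeptidase, had log2 differences of 0.21 and 0.23 with groups that did not overlap. For Ctsb the limma adjusted p was 0.0533, and 5 of the 15 alternative analyses brought it under the threshold. Lgmn, the asparaginyl endopeptidase gene, differed by 0.14, and Ctsl, an endopeptidase gene, by -0.10 (95% interval -0.28 to 0.07).

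Of the aspartic and serine proteases, 1 rose, 1 fell and 2 did not pass the test. Ctse encodes cathepsin E, an aspartic protease of immune and gastric cells, and its probe lies at mm9 chr1:133571990-133572049. Its log2 signals were 5.90, 5.90 and 6.13 on the control arrays. On the Cre arrays they were 3.80, 3.76 and 4.23, and only 1 of those 3 was well above background. The groups lay apart by -2.05 on the log2 scale (limma adjusted p = 0.000144), a size that rests on Cre signals near background. It was -0.69 with normexp background correction and -0.94 with the series matrix. Ctsa encodes the protective protein that forms a complex with beta-galactosidase and neuraminidase. Its signals of 16.25, 16.26 and 16.27 on the control arrays were all below those of 16.71, 16.77 and 16.60 on the Cre arrays (log2 difference 0.43, limma adjusted p = 0.00335). A dimmer probe of Ctsa, on an Ensembl transcript, gave 0.03 and was not called. The gene of the main lysosomal aspartic protease, Ctsd, overlapped between groups, with 17.38, 17.24 and 17.18 on control and 17.36, 17.44 and 17.28 on Cre arrays. Its log2 difference was 0.09 (95% interval -0.12 to 0.30). Tpp1, a tripeptidyl peptidase gene, had a difference of -0.0023 (95% interval -0.19 to 0.18).

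**Figure D2:**
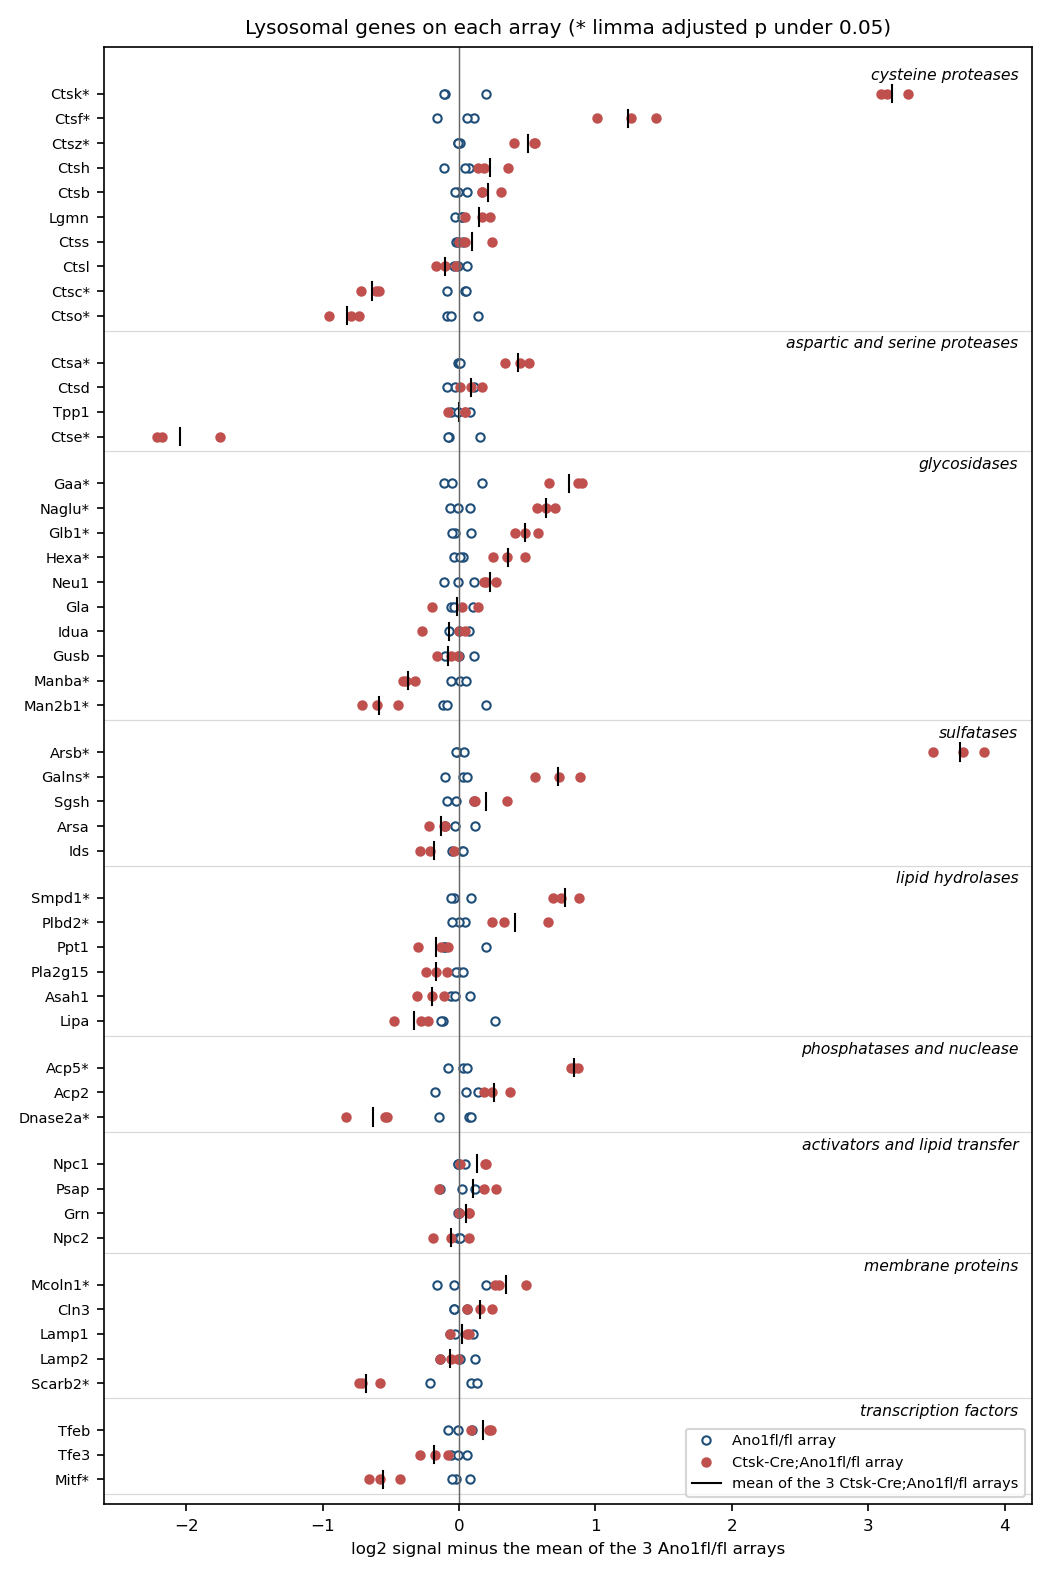
Log2 signal of each of the 50 lysosomal genes on each array, minus the mean of the 3 control arrays, by role (open circles, control arrays; filled circles, Cre arrays; vertical bars, mean of the 3 Cre arrays; asterisks, limma adjusted p under 0.05). Ctsk and Arsb stand more than 3 log2 units to the right on all 3 Cre arrays, Ctse stands to the left, and the activators and lipid transfer proteins overlap throughout.

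Glycosidases remove sugars from the ends of glycan chains, and 4 of the 10 rose while 2 fell. Gaa, which encodes the enzyme that degrades glycogen, had log2 signals of 13.80, 13.52 and 13.58 on control arrays. Its signals of 14.53, 14.50 and 14.29 on the Cre arrays were all higher, a 1.75-fold rise (log2 difference 0.81, limma adjusted p = 0.00156). Naglu acts on heparan sulfate, and its signals were 14.42, 14.48 and 14.57 on control arrays and 15.13, 15.19 and 15.06 on Cre arrays (log2 difference 0.64, limma adjusted p = 0.000895). Glb1, the beta-galactosidase gene, rose by 0.49 and Hexa, the gene of a beta-hexosaminidase subunit, by 0.36 on the log2 scale. With 75th percentile scaling Hexa lost its call (0.24, limma adjusted p = 0.0698). The falls were those of the mannosidase genes. Man2b1, the alpha-mannosidase gene, fell by 0.58 and Manba, the beta-mannosidase gene, by 0.37. Neu1, the neuraminidase gene, had a difference of 0.22 and did not pass the test (limma adjusted p = 0.06). Gla, Gusb and Idua, genes of alpha-galactosidase, beta-glucuronidase and alpha-iduronidase, had differences of -0.01, -0.08 and -0.08 with overlapping groups.

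Sulfatases strip sulfate groups, mostly from glycosaminoglycans, and 2 of 5 rose. Arsb, which acts on dermatan sulfate and chondroitin sulfate, rose on every Cre array. Its brightest probe, at mm9 chr13:94712040-94712099, gave log2 signals of 5.84, 5.90 and 5.84 on the control arrays. The Cre arrays gave 9.33, 9.71 and 9.56. This was a 12.8-fold rise without overlap (log2 difference 3.67, standard error 0.11, limma adjusted p = 9.91e-06). The log2 difference was 2.75 with normexp, 3.12 with the series matrix and 2.83 with the mean of all probes. It was larger than that of Ctsk (3.17) in the fit above and smaller in these 3 alternatives, in which Ctsk had 3.18, 3.21 and 3.17. A second probe on the same RefSeq transcript, at mm9 chr13:94632153-94632212, rose by 2.92 on the log2 scale. A probe on a cDNA clone, well above background on 1 control array and all 3 Cre arrays, had a difference of 1.89. Galns, which acts on keratan sulfate and chondroitin sulfate, had 10.14, 10.27 and 10.30 on control arrays and 11.13, 10.97 and 10.80 on Cre arrays (log2 difference 0.72, limma adjusted p = 0.00204). Sgsh, Arsa and Ids did not pass the test. Sgsh, which acts on heparan sulfate, had signals of 16.94, 16.87 and 17.07 against 17.07, 17.31 and 17.08, so the lowest Cre array barely cleared the highest control array (log2 difference 0.20, limma adjusted p = 0.139). Arsa, the cerebroside sulfatase gene, differed by -0.14 and Ids, the iduronate sulfatase gene, by -0.18. Stromal cells make dermatan sulfate proteoglycans, and the stromal marker list had summed processed signals of 23640 to 29930 on control arrays and 87350 to 135800 on Cre arrays. Their part in the rise of Arsb was not tested.

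Among the 6 lipid hydrolases, 2 rose and 0 fell in limma's test, with Lipa lower at an unadjusted p under 0.05. Smpd1 encodes acid sphingomyelinase, and its signals of 12.68, 12.55 and 12.53 on control arrays lay below those of 13.28, 13.47 and 13.34 on Cre arrays (log2 difference 0.78, limma adjusted p = 0.000613). Plbd2, which encodes a phospholipase B domain protein, had 13.57, 13.53 and 13.48 on control arrays and 14.18, 13.86 and 13.77 on Cre arrays. Its log2 difference of 0.41 (limma adjusted p = 0.0287) lost its call in 6 of the 15 alternative analyses. Lipa, Asah1 and Pla2g15, the genes of acid lipase, acid ceramidase and a lysosomal phospholipase, had differences of -0.33, -0.20 and -0.17, and all had groups that lay apart. Their adjusted p-values in limma were 0.0827, 0.087 and 0.0855. These genes were called lower in 4, 3 and 5 of the 15 alternative analyses, in the same order, so the count of 0 falls depends on the processing. With normexp background correction all of them were called lower (limma adjusted p = 0.0452, 0.0402 and 0.032). Ppt1, the palmitoyl thioesterase gene, differed by -0.17 and its groups overlapped.

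Of the phosphatases and the nuclease, Acp5 rose, Dnase2a fell and Acp2 did not pass the test. Acp5, the histochemical marker of osteoclasts, had signals of 16.79, 16.90 and 16.93 on control arrays and 17.71, 17.74 and 17.69 on Cre arrays. The rise was 1.79-fold, with a 95% interval of the log2 difference from 0.67 to 1.01. Dnase2a, which digests the DNA of engulfed cells, had 11.63, 11.41 and 11.65 on control arrays. Its signals of 11.03, 11.02 and 10.73 on the Cre arrays were lower without overlap (log2 difference -0.63, limma adjusted p = 0.00529). Acp2, another acid phosphatase gene, had 11.51, 11.83 and 11.74 against 11.87, 12.06 and 11.93, apart but not past the threshold (log2 difference 0.26, limma adjusted p = 0.089).

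None of the 4 activators and lipid transfer genes passed limma's test (0 also at an unadjusted p under 0.05), and the groups overlapped for all of them. Npc1, which moves cholesterol out of the lysosome, had the largest difference, with 13.85, 13.90 and 13.85 on control arrays and 14.06, 14.05 and 13.87 on Cre arrays (log2 difference 0.13, 95% interval -0.06 to 0.32). Psap, the precursor of the saposins, had 16.67, 16.41 and 16.57 against 16.82, 16.73 and 16.40 (log2 difference 0.10, 95% interval -0.22 to 0.42). Grn, the progranulin gene, differed by 0.05 (95% interval -0.10 to 0.20) and Npc2, the partner of Npc1 in cholesterol export, by -0.06 (95% interval -0.26 to 0.14).

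Of the 5 membrane proteins, 1 rose and 1 fell. Scarb2 encodes LIMP-2, the receptor that carries glucocerebrosidase to the lysosome, and its signals were 12.43, 12.13 and 12.47 on control arrays and 11.76, 11.63 and 11.61 on Cre arrays. It was lower without overlap (log2 difference -0.68, limma adjusted p = 0.00314). Mcoln1, a calcium channel of the lysosome, had 13.59, 13.23 and 13.35 against 13.68, 13.88 and 13.65. Its difference of 0.35 stood at the threshold (limma adjusted p = 0.0495) and was no longer called in 10 of the 15 alternative analyses. Cln3, whose loss causes juvenile neuronal ceroid lipofuscinosis, differed by 0.16, and Lamp1 and Lamp2, the genes of the most abundant glycoproteins of the lysosomal membrane, by 0.02 and -0.07. For Lamp1 the 95% interval ran from -0.18 to 0.21.

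The transcription factors moved little, apart from Mitf. Tfeb had signals of 8.98, 8.91 and 9.09 on control arrays and 9.23, 9.08 and 9.21 on Cre arrays, which overlapped (log2 difference 0.18, limma adjusted p = 0.114). Its dimmer probes gave -0.16, -0.14 and 0.38, and only the last was called (limma adjusted p = 0.029 over all probes). Tfe3 had 14.32, 14.20 and 14.25 against 14.18, 14.08 and 13.97, apart but not past the threshold (log2 difference -0.18, limma adjusted p = 0.108). It was called lower in 2 of the 15 alternative analyses. Mitf fell. Its signals were 13.68, 13.78 and 13.65 on control arrays and 13.12, 13.27 and 13.04 on Cre arrays (log2 difference -0.56, limma adjusted p = 0.00263). All 4 probes of Mitf were lower, the dimmer ones by -0.91, -0.97 and -1.99, so that its difference was larger on each of those probes than on the brightest. The probe with -1.99 lies on an Ensembl transcript, outside RefSeq. Mitf is expressed in mast cells as well as in osteoclasts, and 5 of the mast cell and basophil markers were lower, as given above. The part of that list in the fall of Mitf was not tested.

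On the Cre arrays the same array was often the lowest. Replicate 3 of the Cre arrays had the lowest signal of its group for 37 of the 50 lysosomal genes (74%), against 36.8% of all genes tested. Among the control arrays, replicate 2 was the lowest for 27 of the 50 (54%), against 29.5%. Without replicate 3 of the Cre arrays, 13 genes were higher and 8 were lower, and the median log2 difference was 0.13. Over all genes tested, that fit gave 4374 higher and 5202 lower, with a median of -0.05.

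Probes of the same gene did not always give the same difference. Over all probes, 26 of the 95 tested were higher, where 21.8% of all 31848 probes tested were, and 25 were lower, where 30.6% were. Of the 26 genes with several tested probes, all probes lay on the same side of 0 in 19, every probe was called higher in 5 and every probe was called lower in 5. Cln3 and Ctsh had probes called in both directions. The brightest and a dimmer RefSeq probe of Cln3 had differences of 0.16 and 0.43, and a probe on an Ensembl transcript had -0.77. Ctsh behaved alike, with 0.23, 0.40 and 0.46 on RefSeq probes and -0.63 on an Ensembl transcript. Npc1 had 0.13 on its RefSeq probe and -0.88 and -0.86 on 2 Ensembl transcripts. For Ctsl, Lamp2 and Gusb the brightest probe was not called, while a dimmer probe on a transcript outside RefSeq fell, by 1.06, 1.01 and 0.50.

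This difference by accession was shared by the array as a whole. Of the 20 dimmer probes of lysosomal genes without a RefSeq accession, 13 were lower, where 50% of 3666 such probes of all genes were, and 3 were higher, where 11.4% were. Among the 13, a probe of Ppt1 was well above background on 0 of the Cre arrays, and among the 3 a probe of Arsb was so on 1 control array. Their median log2 difference was -0.76, and that of all such probes was -0.43. Of the 25 dimmer probes with a RefSeq accession, 10 were higher, where 23.6% of 7537 such probes were, and 4 were lower, where 26.8% were. Their median difference was 0.02, and that of all such probes was -0.04. Glb1 had rises on both kinds of probe, as its RefSeq probes rose by 0.48 and 0.92. Outside RefSeq, its brightest probe rose by 0.49, and dimmer probes on cDNA clones gave 0.80 and -0.0085.

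**Figure D3:**
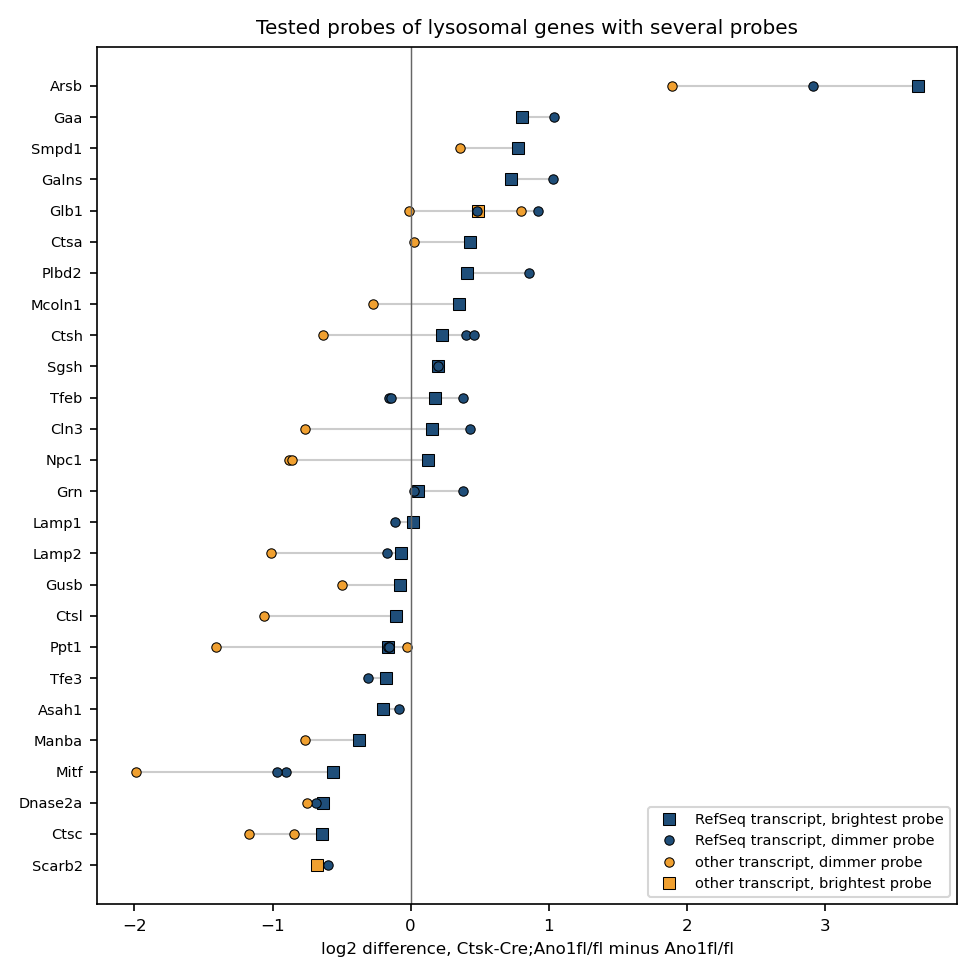
Log2 difference (Cre minus control arrays) of every tested probe of the 26 lysosomal genes with several tested probes, with squares for the brightest probe, circles for dimmer probes, dark symbols for RefSeq transcripts and light symbols for other transcripts. Light circles lie to the left of the dark symbols for Cln3, Ctsh, Npc1, Lamp2 and Ctsl, and the 3 probes of Arsb all lie to the right of 0.

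E-boxes stood in a larger share of the promoters of these genes than of promoters at large, which was counted and not tested. Promoter windows, from position -250 to position 50 around a start site, were at hand for 43 of the 50 genes. Counting both strands, CACGTG was present for 14 of the 43 (32.6%), against 8.09% of 27025 genes in the same reference. The longer form TCACGTGA, which contains it, was present for 5 genes (11.6%, against 1.12%): Cln3, Ctsa, Ctsd, Gla and Mcoln1. The M-box TCATGTGA was present for 6 (14%, against 1.15%): Acp5, Ctss, Gla, Grn, Ppt1 and Tpp1. With the E-box were 6 of the 12 genes called higher (Ctsa, Ctsf, Gaa, Glb1, Mcoln1 and Naglu), 0 of the 7 called lower and 8 of the 24 not called. The median log2 difference was 0.18 for the 14 genes with it and -0.07 for the 29 without it, a description of genes that are not replicates, with no test. Ctsk, Arsb, Acp5 and Smpd1 rose and had no CACGTG in these windows, and Lamp1, with 4, did not pass the test.

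**Figure D4:**
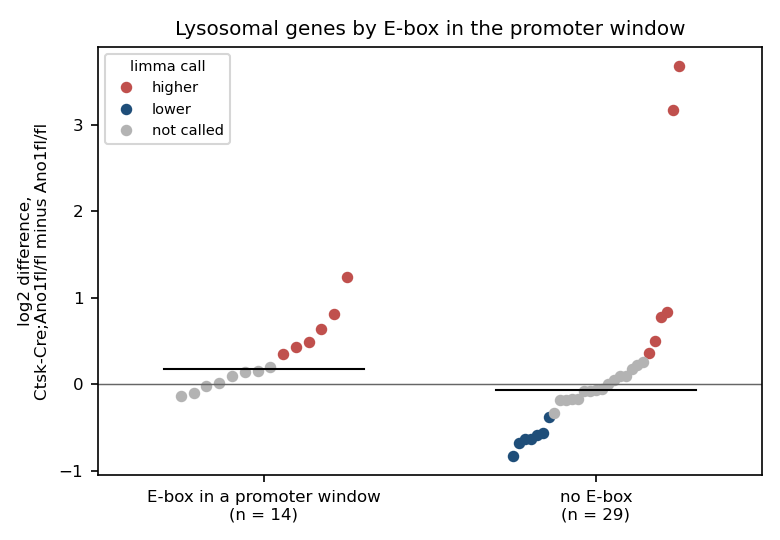
Log2 difference (Cre minus control arrays) of the 43 lysosomal genes with a promoter window, by whether CACGTG was found in it (14 genes) or not (29 genes), coloured by limma call; horizontal bars are medians. All 7 genes called lower lie among those without the element, as do the largest rises, Ctsk and Arsb.

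Other genes of the lysosome also included rises and falls. Of 34 further hydrolase genes tested, 11 were higher and 11 lower, with a median log2 difference of 0.03, beside 23.4% higher and 29% lower among all genes tested. The largest rises were those of the hyaluronidase genes Hyal1 (0.85) and Hyal2 (0.79), and the largest falls those of Hpse (-1.19), the heparanase gene, and Prcp (-1.15), a carboxypeptidase gene. Of 11 other cathepsins, 9 were below background on every array. Ctsg, a granule protease of neutrophils and mast cells, was 10.6-fold lower, with signals of 14.79, 15.08 and 15.13 on control arrays and 11.87, 11.01 and 11.93 on Cre arrays (limma adjusted p = 0.000177). Ctsw, a protease of cytotoxic lymphocytes, was higher by 1.28.

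Of 18 genes of mannose 6-phosphate tagging and sorting, 5 were higher and 5 lower. Gnptab, which encodes the phosphotransferase that makes the tag, rose by 1.17, whereas Sorl1, a sorting receptor gene, fell by 0.80 and Cln6 by 0.73. Of 32 other lysosomal membrane genes, 12 were higher and 6 lower, with a median of -0.01. Slc15a3, a peptide transporter gene, rose by 1.84 and Slc37a2 by 1.17, while Slc29a3, a nucleoside transporter gene, fell by 1.21 and Tpcn1, a cation channel gene, by 0.94. Of 24 genes around the nutrient control of TFEB, 7 were higher and 5 lower, with a median of 0.05. The largest rise was that of Rragd, a Rag GTPase that brings TFEB and mTORC1 to the lysosome, with signals of 8.998, 8.57 and 8.54 on control arrays and 10.68, 11.08 and 10.88 on Cre arrays (log2 difference 2.18, limma adjusted p = 0.000159). Fnip2, a folliculin partner gene, rose by 0.89, while Tfec, a relative of Tfeb, fell by 0.62 and Max, a general E-box factor gene, by 0.41.

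The osteoclast markers had a median log2 difference of 2.47, and their summed processed signals were 96480 to 129000 on control arrays and 269200 to 289300 on Cre arrays. The rises of Ctsk and Acp5, which are not in that list, stand beside it. Of 13 macrophage markers, 2 were higher and 6 lower, with a median of -0.13. Of 7 T and NK cell markers, 4 were higher (among them Ncr1, well above background on 2 control arrays) and 2 lower, and of 8 dendritic cell markers 3 were higher and 1 lower. The part of each cell type in the differences of the lysosomal genes was not tested.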

How the data were processed

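RNA of osteoclasts from 3 Ano1fl/fl and 3 Ctsk-Cre;Ano1fl/fl mice was hybridised to 6 one-colour arrays on 1 slide. The authors deposited scanner intensities from Agilent Feature Extraction 10.7.1.1, whose processed signal has background removed and is not normalized between arrays, and a series matrix equal to spot medians. Between 33480 and 34951 of 59305 transcript spots were well above background, and none was saturated. From the deposited intensities, log2 signals were quantile normalized, the algorithm that the methods name, with limma 3.58.1 in R 4.3.3. Spots of a probe were averaged without 143 to 252 outlier spots per array. A gene was its brightest probe, tested where all 3 arrays of a group, control or Cre, had it well above background. Groups were compared with limma (lmFit, eBayes), adjusted over 20645 genes, or over 31848 probes where all probes are compared. Intervals are 95% and unadjusted. The number of arrays limits the precision, and 3 against 3 cannot give an exact permutation p under 0.1. The 3 arrays of a group come from separate mice per the methods.

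Values on every array are given for genes past 2-fold, for Ctsk, Acp5 and the transcription factors, and for up to 2 further genes per role by size of difference; of other lists, the 2 largest rises and falls are named, except 1 gene that is not reported here. Ctss, Neu1 and the genes named for their probes or promoters were chosen after their values were seen. The members and lists were chosen with earlier results of these data known. The fit was tested on simulated data. Promoters came from RefSeq (GRCm38.p6), and probe positions are those of the array files (mm9). Python 3.11.15, pandas 2.3.3 and matplotlib 3.10.9 were used.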

Additional observations from a re-analysis of the deposited data

How the results depend on the processing

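No gene called among the 50 changed direction under any of 15 alternatives, and the replicate block changed no call but that of Mcoln1. The members called lower numbered 13 with 75th percentile scaling (12 higher), a scaling that moved the median of all genes from -0.06 to -0.12, and 11 with normexp background correction (16 higher, beside 4985 higher and 6031 lower of all genes). Past 2-fold, 1.5-fold in its place gave 8 higher and 6 lower. The share of all genes was not counted at that threshold, nor past 2-fold in the alternatives that follow. The count higher was 2 with normexp and 2 with the series matrix, and the count lower was 0 with normexp, 0 with the series matrix, 0 when every array had to be well above background (Ctse was then not tested), and 2 with the mean of all probes. The cause of the normexp, matrix and scaling changes was not tested. The sign turned for Lamp1 with 75th percentile scaling (-0.0267) and with the mean of all probes (-0.0468), under which Npc1 (-0.536, limma adjusted p = 0.0148) and Cln3 (-0.0597) also turned. Leaving out each array in turn gave 12 to 14 higher and 8 to 9 lower, medians of 0.05 to 0.13, and log2 differences across 0 for Lamp1 (-0.0172 to 0.0711), Tpp1 (-0.0356 to 0.0388), Gla (-0.0940 to 0.0785), Npc2 (-0.122 to 0.00555) and Idua (-0.136 to 0.0206). Of all genes, 4112 to 4374 were higher and 4903 to 5241 lower when an array was left out. Plbd2 kept its call in 2 and Mcoln1 in 1 of these 6 fits. The methods' t-test with Benjamini-Hochberg adjustment gave 13 higher and 9 lower (4414 and 5260 of all genes), limma with trend and robust settings 18 and 12 (5136 and 6176). Replicate numbers did not pair the arrays: same-numbered arrays had deviations correlated at 0.0044, -0.06 and -0.08 across genes. Between control and Cre arrays of different numbers the correlations ran from -0.12 to 0.18. The labels do not give which mice shared a litter, and a pairing under other numbers was not tested. With the replicate block, 13 genes were higher and 8 lower (4200 and 5079 of all genes), as were 23 and 25 probes. A comparison of the proteins was not run. Genes near background, such as Ctse, are limited by their signal.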
